A study of Mus musculus with 8 samples.

Results

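The response of wild-type (WT) mouse embryonic fibroblasts (MEFs) to serum starvation was measured on Illumina bead arrays. MEFs are mixed primary cells of the embryo body that grow as fibroblasts on plastic. They came from C57BL/6 embryos of embryonic day 13.5. WT MEFs starved of serum, grown for 72 h in DMEM without fetal bovine serum (FBS), were set against proliferating WT MEFs kept in DMEM with 10% FBS. That the medium held no FBS is from the labels, while the methods of the study describe a low serum content for the starvation before a DNA synthesis assay, and which was used for the arrays is not settled. There were 2 arrays per group, from clone 1 and clone 16, and each clone was measured in both states. The labels do not say whether a clone stands for 1 embryo. Sex-linked genes, given with the processing, differed between clones 1 and 16, so these were not from the same embryo. The p-values measure the spread between these 4 arrays, which may in part be technical. The members were these 4 of the 8 arrays, chosen by genotype. The other 4 arrays held MEFs of the same strain and age with the L430Q change in the Rb-binding region of E2F3. They came from clones 2 and 4 in the same conditions. They were used here for 1 comparison and for alternatives that normalized or fitted all 8 arrays. No allele, agent or transgene was named for the WT cells. With 1 length of starvation, no serum re-addition and 2 clones, early and late responses were not separated. The RNA was from whole cultures, so fewer cells of a type and less RNA per cell cannot be told apart.

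Serum brings fibroblasts growth factors such as PDGF, lysophospholipids that signal to the actin cytoskeleton, and lipoproteins that carry sterols and fatty acids. When it is withdrawn, fibroblasts leave the cell cycle for a reversible resting state, in which Rb family proteins keep E2F target genes and mitotic genes low. Serum response factor (SRF), SREBP and ATF4 are the transcription factors best known for the genes of the actin cytoskeleton, of lipid synthesis and of amino acid supply. NF-kB and the interferon-activated STAT and IRF factors are those best known for inflammatory genes.

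Levels are given as the log2 signal of a gene's brightest probe, in the order clone 1 and clone 16, and differences as starved minus proliferating on that log2 scale with the SE of the fit. A signal of 1 probe was not set against that of another. Where another probe of a called gene gave a difference weaker by over 1.5 times on the linear scale, it is given as the weakest probe. Between 12141 and 12420 of 25697 probes were above background on each WT array (detection p-value under 0.05), and the median intensity was 108.4 and 113.4 on the starved arrays, against 114.1 and 123.1 on the proliferating arrays. The 12635 probes that were above background on at least 2 of the 4 arrays gave 9500 features, 8780 named genes and 720 probes with no gene symbol. Of these, 940 (9.89%) were higher and 925 (9.74%) were lower in starved WT MEFs at a limma adjusted p under 0.05. Starved and proliferating arrays did not overlap for 2976 features on the higher side and 3122 on the lower side (31.3% and 32.9%), and all 1865 called features were among them. Each of these moved the same way in both clones. A difference of at least 1 was reached by 448 of the higher and 347 of the lower features, and one of at least 3 by 47 of the higher and 5 of the lower. The median over all features was -0.00516. Scaling the arrays to 1 median without equalizing their distributions left 684 features higher and 1267 lower, with a median of -0.118.

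Both clones gave much the same profile. The clone 1 and clone 16 differences correlated at r = 0.804 (Spearman's rho = 0.692) across the 9500 features, which are not independent replicates. The log2 signals of the 2 starved arrays correlated at r = 0.9923 and those of the 2 proliferating arrays at r = 0.9853, while starved and proliferating arrays correlated at r = 0.9432 to 0.9512. The 6 named genes with the largest gaps between the clones were Rsad2, Cxcl10, Ccl3, Fam114a1, Slc15a3 and Ccl11. Of these Fam114a1 had -0.73 in clone 1 and 1.47 in clone 16, Slc15a3 had -0.69 and 1.40, and Ccl3 had -0.04 and 2.23, and none of these 3 was called, although Ccl3 passed with the clone as a block (adjusted p = 0.045). Rsad2, an interferon-induced antiviral enzyme, had 7.83 and 10.19 on the starved arrays, against 5.14 and 4.86 on the proliferating arrays, so that it was higher in both starved cultures but by 2.68 in clone 1 and 5.33 in clone 16. Ccl11, the eosinophil chemokine eotaxin, had 11.21 and 9.45 on the starved arrays, against 4.88 and 5.17 on the proliferating arrays, with the larger difference in clone 1 (6.34, against 4.28 in clone 16).

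**Figure D1:**
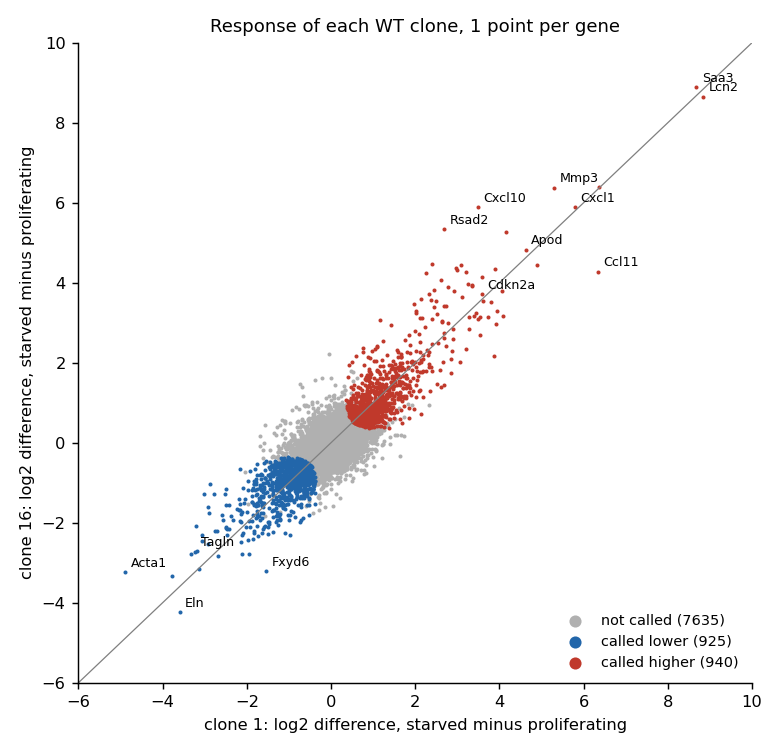
Log2 difference, starved minus proliferating, in clone 1 (x axis) against clone 16 (y axis), 1 point per feature, with the line of equal change. The 940 features called higher (red) and the 925 called lower (blue) lie in the quadrants where both clones moved the same way, with Saa3 and Lcn2 farthest out.

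The label of fibroblasts was borne out by its markers. Of 14 fibroblast marker genes 13 were measured and all 13 were above background in both conditions. Their summed linear signal was 30400 and 28600 on the starved arrays, against 25600 and 26800 on the proliferating arrays. Single markers split, with a median difference of -0.103. Dcn, Lum, Pdgfra and, on its brightest probe, Col3a1 were higher, while Col1a1, Thy1, Prrx1 and Pdgfrb were lower. Markers of other lineages were measured in part, 3 of 9 for endothelium, 1 of 8 for epithelium, 3 of 8 for skeletal muscle, 4 of 10 for neural and glial cells, 2 of 6 for adipocytes and 5 of 10 for cartilage and bone. The endothelial genes Pecam1 and Cdh5, the muscle regulators Myod1 and Myog and the leukocyte genes Ptprc and Itgam were below background on at least 3 of the 4 arrays. Some that were measured changed. The cartilage and bone markers summed to 194 and 231 on the starved arrays, against 397 and 529 on the proliferating arrays, and Col2a1, the collagen of cartilage, had 4.36 and 5.26 on the starved arrays, against 8.14 and 8.59 on the proliferating arrays, with 1 starved array above background (difference -3.56 ± 0.31, SE, 11.8-fold lower, adjusted p = 0.000906). Sox9 and Bglap of that list were higher. Neural and glial markers summed to 303 and 313 on the starved arrays, against 695 and 504 on the proliferating arrays, with Nes, nestin, at 5.54 and 5.54 on the starved arrays, against 8.33 and 6.81 on the proliferating arrays (difference -2.03 ± 0.43, SE, 4.09-fold lower, adjusted p = 0.0211) and Map2 also lower. Skeletal muscle markers summed to 90.5 and 90.8 on the starved arrays, against 1260 and 541 on the proliferating arrays, with Acta1 and Des lower and Myl1 not called. Endothelial markers summed to 180 and 214 on the starved arrays, against 276 and 184 on the proliferating arrays, and of them Tek was higher by 1.96 and Emcn fell by 2.64 (adjusted p = 0.000839 and 0.00199). For Sox9 the call was lost without the array of starved clone 1, starved clone 16 or proliferating clone 1 (adjusted p = 0.0788, 0.122 and 0.0722), and for Map2 the call was lost without the array of starved clone 1, starved clone 16 or proliferating clone 16 (adjusted p = 0.201, 0.129 and 0.0789). A macrophage signal was present as well. Of 16 macrophage and blood markers 12 were measured, and their summed signal was 4090 and 4100 on the starved arrays, against 6610 and 3060 on the proliferating arrays, so that the groups overlapped. Of the 12, 6 were lower and 1 was higher. C1qb, a chain of complement C1q made by tissue macrophages, had 6.71 and 7.05 on the starved arrays, against 9.71 and 8.33 on the proliferating arrays (difference -2.14 ± 0.41, SE, 4.41-fold lower, adjusted p = 0.0142). Mrc1, the mannose receptor, had 5.13 and 5.07 on the starved arrays, against 8.05 and 7.61 on the proliferating arrays (difference -2.73 ± 0.19, SE, 6.62-fold lower, adjusted p = 0.000566). Adgre1, an adhesion receptor of macrophages, went the other way, with 6.97 and 7.07 on the starved arrays, against 5.88 and 5.29 on the proliferating arrays (difference 1.43 ± 0.22, SE, 2.7-fold higher, weakest probe 0.59, adjusted p = 0.00653). The part of these cells in the results that follow was not tested.

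In the plot of gene lists, inflammatory and innate immune lists stood at the top and mitotic, sterol, actin and amino acid lists at the bottom. Lists for ribosomal proteins, oxidative phosphorylation and Hox genes stayed near the median of all features. The lists were chosen with earlier results of these data known and none was tested, so their order is a description. The counts below are read against the background of 9.89% higher and 9.74% lower among all features.

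**Figure D2:**
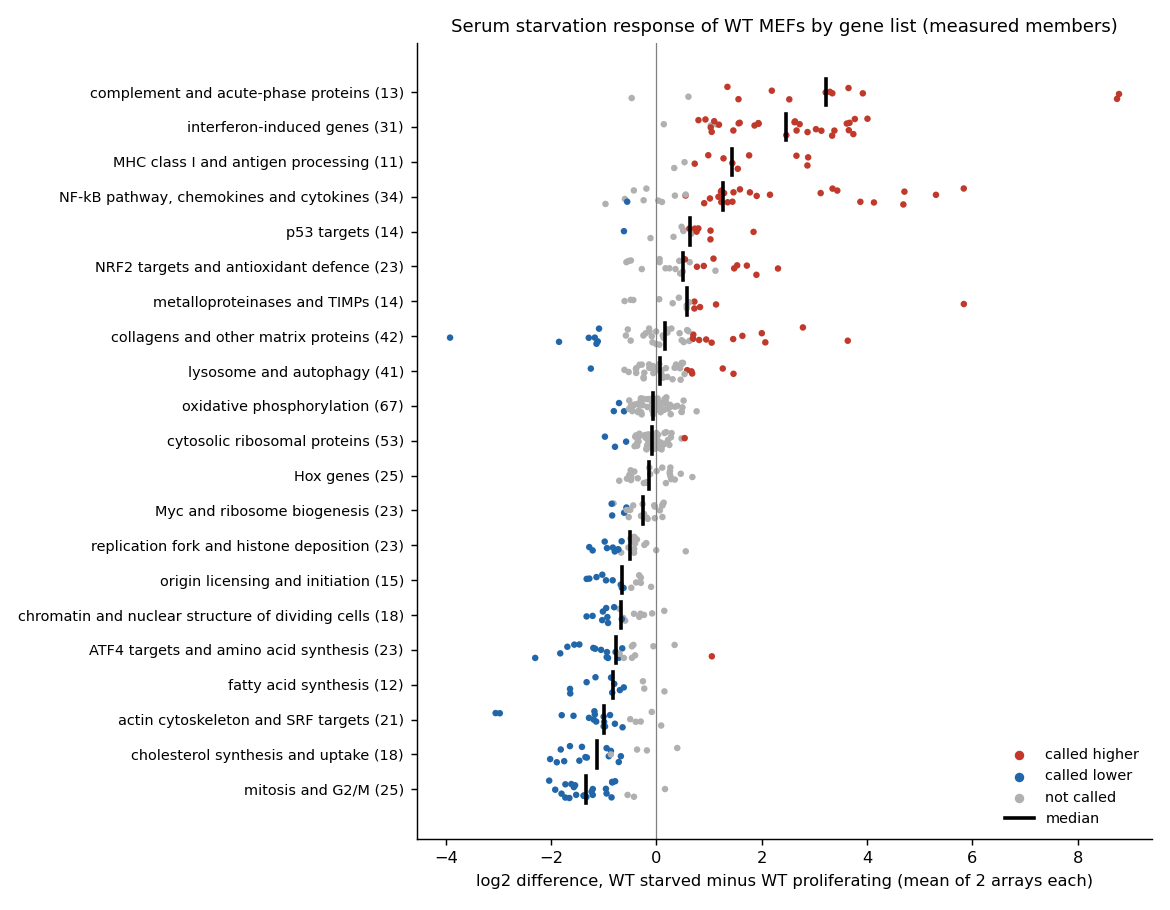
Log2 difference, WT starved minus WT proliferating (x axis), of each measured member of 21 gene lists (rows, with the number measured in parentheses), 1 point per gene, coloured by call, with the list median as a bar. List medians ran from 3.21 for complement and acute-phase proteins down to -1.33 for mitosis and G2/M.

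The largest differences were in acute-phase and complement proteins, secreted factors of innate defence. Of 13 measured members 11 were higher and none lower, with a median of 3.21. Of the higher ones Lcn2 and Cfb passed the detection filter through the starved arrays alone. Lcn2, lipocalin 2, which binds bacterial iron carriers, was above background on neither proliferating array, with 13.28 and 13.23 on the starved arrays, against 4.43 and 4.59 on the proliferating arrays. It was at least 376-fold higher in starved cells (adjusted p = 8.06e-07). Saa3, an acute-phase apolipoprotein made outside the liver, had 13.42 and 13.52 on the starved arrays, against 4.74 and 4.63 on the proliferating arrays and was above background on 1 of the 2 proliferating arrays. Its difference was 8.78 ± 0.15 (SE, adjusted p = 8.06e-07). For both genes each starved array lay far above each proliferating array. Serpina3n, a serine protease inhibitor, had 11.75 and 11.86 on the starved arrays, against 7.69 and 8.08 on the proliferating arrays (difference 3.92 ± 0.18, SE, 15.1-fold higher, adjusted p = 0.000128). Hp, haptoglobin, had 10.29 and 10.73 on the starved arrays, against 6.93 and 6.79 on the proliferating arrays (difference 3.65 ± 0.19, SE, 12.5-fold higher, adjusted p = 0.000232). Cp, the copper-carrying ferroxidase ceruloplasmin, had 8.68 and 8.58 on the starved arrays, against 5.27 and 5.40 on the proliferating arrays (difference 3.29 ± 0.15, SE, 9.8-fold higher, adjusted p = 0.000128). No starved array overlapped a proliferating array for any of these, which holds for every called feature. C1s1, a protease of the C1 complex, was higher by 2.52 (5.74-fold, adjusted p = 0.000289). Serping1, the C1 inhibitor, was higher by 3.34 (10.1-fold, adjusted p = 0.000232). Cd55, a membrane inhibitor of complement convertases, was higher by 3.21 (9.28-fold, adjusted p = 0.000648). C1rl and Cd59a were not called, although C1rl passed with the clone as a block (adjusted p = 0.0274). The C1q chains C1qa, C1qb and C1qc, complement components that were kept with the macrophage markers, were all lower, with C1qa above background on neither starved array and at least 4.00-fold lower and with differences of -2.14 for C1qb and -2.26 for C1qc.

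Chemokines and genes of the NF-kB pathway were another higher group, with 24 of 34 measured members higher, 1 lower and a median of 1.26. Of the higher members, Tnfaip3, Ccl8, Cxcl2, Cxcl5, Cxcl10 and Il6 were above background on both starved arrays and neither proliferating array. They passed the filter through the starved arrays alone, so their inclusion depended on being high there. Of all 9500 features 251 were of this kind. Cxcl1, which attracts neutrophils, had 14.30 and 14.05 on the starved arrays, against 8.51 and 8.16 on the proliferating arrays (difference 5.84 ± 0.19, SE, 57.1-fold higher, adjusted p = 2.63e-05). Cxcl5, of the same family, had 8.45 and 9.52 on the starved arrays, against 4.29 and 4.25 on the proliferating arrays, with neither proliferating array above background, and was at least 19.4-fold higher (adjusted p = 0.000566). Both were far apart between conditions in each clone. The monocyte chemokine Ccl2 had 9.95 and 9.54 on the starved arrays, against 6.35 and 5.40 on the proliferating arrays (difference 3.87 ± 0.31, SE, 14.6-fold higher, adjusted p = 0.000813). Its neighbour Ccl7 had 11.50 and 11.53 on the starved arrays, against 7.59 and 7.18 on the proliferating arrays (difference 4.13 ± 0.18, SE, 17.5-fold higher, adjusted p = 0.000125). Ccl11 was higher by 5.31 ± 0.50 (SE, 39.6-fold, weakest probe 4.19, adjusted p = 0.0012). These 3 and Ccl8, at least 8.8-fold higher (adjusted p = 0.000278), are CC chemokines. Like those of every called feature, their starved and proliferating arrays did not overlap. Cxcl10, an interferon-induced T cell chemokine, was above background only in starved cells, at least 23.1-fold higher (adjusted p = 0.00422), but the call was lost without the array of proliferating clone 1 or proliferating clone 16 (adjusted p = 0.0656 and 0.0534). Regulators of the pathway were also higher. Nfkbia, the inhibitor IkB-alpha that NF-kB itself induces, had 9.36 and 9.68 on the starved arrays, against 7.48 and 7.25 on the proliferating arrays (difference 2.16 ± 0.18, SE, 4.45-fold higher, adjusted p = 0.000884). The adhesion molecules Icam1 and Vcam1 were higher by 1.44 (2.72-fold, adjusted p = 0.00418) and 1.90 (3.74-fold, adjusted p = 0.00109). Ptx3, a secreted pattern recognition protein, was higher by 3.12 (8.68-fold, adjusted p = 0.000849). The subunit genes Rela and Nfkb2 and the chemokines Cxcl12 and Cxcl14 were not called, and Cx3cl1 was the 1 member that was lower. With the clone as a block Cxcl12 and Cxcl14 were lower too (adjusted p = 0.0301 and 0.00231), which makes 3 lower members.

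The window from 250 bases before to 50 bases after the start of each gene (RefSeq, GRCm38.p6) was searched on both strands for the kB site, the sequence that NF-kB dimers bind. It was found for 11 of the 15 higher members with a window (73.3%), against 12.5% of the 7158 features with a window and 8.46% of all 32851 windows. Of the 6 higher acute-phase and complement genes with a window none held it. The motif and its test on these lists were chosen after the values were seen. The stretches of Cxcl1 and Nfkbia are shown because both were among the higher genes and hold the site close to the start, 70 bases upstream for Cxcl1 and 29 for Nfkbia. Each is written 5′ to 3′ on the gene's strand, with the site in capitals; the Cxcl1 stretch holds 2 overlapping matches.
Cxcl1 (chr5:90891130-90891229, plus strand): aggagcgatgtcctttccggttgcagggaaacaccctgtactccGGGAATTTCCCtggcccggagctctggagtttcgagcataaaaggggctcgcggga
Nfkbia (chr12:55492648-55492747, minus strand): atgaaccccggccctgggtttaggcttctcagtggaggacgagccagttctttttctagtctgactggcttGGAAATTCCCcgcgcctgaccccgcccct
A match is a description of letters and not of binding in these cells.

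Of 31 measured interferon-induced genes 28 were higher, none was lower and the median was 2.47. Of the higher ones Rtp4 and Ifitm1 passed the detection filter through the starved arrays alone. Ifit2, Oasl1 and Ifi27 were the 3 not called, and each had a positive difference. With the clone as a block Ifit2 and Oasl1 were higher as well (adjusted p = 0.00578 and 0.00625). Isg15, a ubiquitin-like modifier, had 11.93 and 12.81 on the starved arrays, against 8.84 and 8.36 on the proliferating arrays (difference 3.77 ± 0.31, SE, 13.6-fold higher, adjusted p = 0.000813). Ifit3, which binds viral RNA complexes, had 12.24 and 13.09 on the starved arrays, against 9.27 and 8.72 on the proliferating arrays (difference 3.67 ± 0.31, SE, 12.7-fold higher, adjusted p = 0.000884). The guanylate-binding protein gene Gbp2 had 10.59 and 11.52 on the starved arrays, against 8.26 and 7.80 on the proliferating arrays (difference 3.03 ± 0.31, SE, 8.16-fold higher, weakest probe 1.54, adjusted p = 0.00167). In all 3, as in every feature called higher, the starved arrays lay above the proliferating ones. In these 3 genes clone 16 was the higher starved array and the lower proliferating one. Gbp3 was higher by 3.74 (13.3-fold, adjusted p = 0.0006), and Irgm2, an immunity-related GTPase, by 2.87 (7.3-fold, adjusted p = 0.000648). Oasl2, of the oligoadenylate synthetase family, was higher by 3.61 (12.2-fold, weakest probe 2.31, adjusted p = 0.000332). Irf7, the transcription factor that amplifies type I interferon, had 8.26 and 8.99 on the starved arrays, against 5.28 and 4.67 on the proliferating arrays and was above background on 1 of the 2 proliferating arrays (difference 3.65 ± 0.29, SE, adjusted p = 0.000801). Rsad2 was higher by 4.01 ± 0.66 (SE, adjusted p = 0.00827), but the call was lost without the array of proliferating clone 1 or proliferating clone 16 (adjusted p = 0.0819 and 0.0756).

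Genes that load peptides on MHC class I followed the same direction, with 9 of 11 measured members higher, none lower and a median of 1.44. B2m, the light chain of class I molecules, had 14.14 and 13.99 on the starved arrays, against 13.22 and 12.94 on the proliferating arrays (difference 0.98 ± 0.17, SE, 1.98-fold higher, adjusted p = 0.00981), but the call was lost without the array of starved clone 1 (adjusted p = 0.0635). H2-T23, a nonclassical class I gene, had 10.81 and 11.09 on the starved arrays, against 8.67 and 7.50 on the proliferating arrays (difference 2.87 ± 0.36, SE, 7.29-fold higher, adjusted p = 0.00299). H2-D1 was above background only in starved cells and at least 6.42-fold higher (adjusted p = 0.000581). The B2m groups lay close together on the scale but, like those of every called feature, did not overlap. Tap2, a subunit of the peptide transporter, was higher by 2.66 (6.31-fold, adjusted p = 0.000409), and Psmb9, a subunit of the immunoproteasome, by 2.63 (6.2-fold, adjusted p = 0.00125). Nlrc5, the transactivator of class I genes, was higher by 1.76 (3.39-fold, adjusted p = 0.00313). Psme1 and Psme2, subunits of the proteasome activator, were not called. Class I genes are near-identical to each other, and their probes could share signal.

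**Figure D3:**
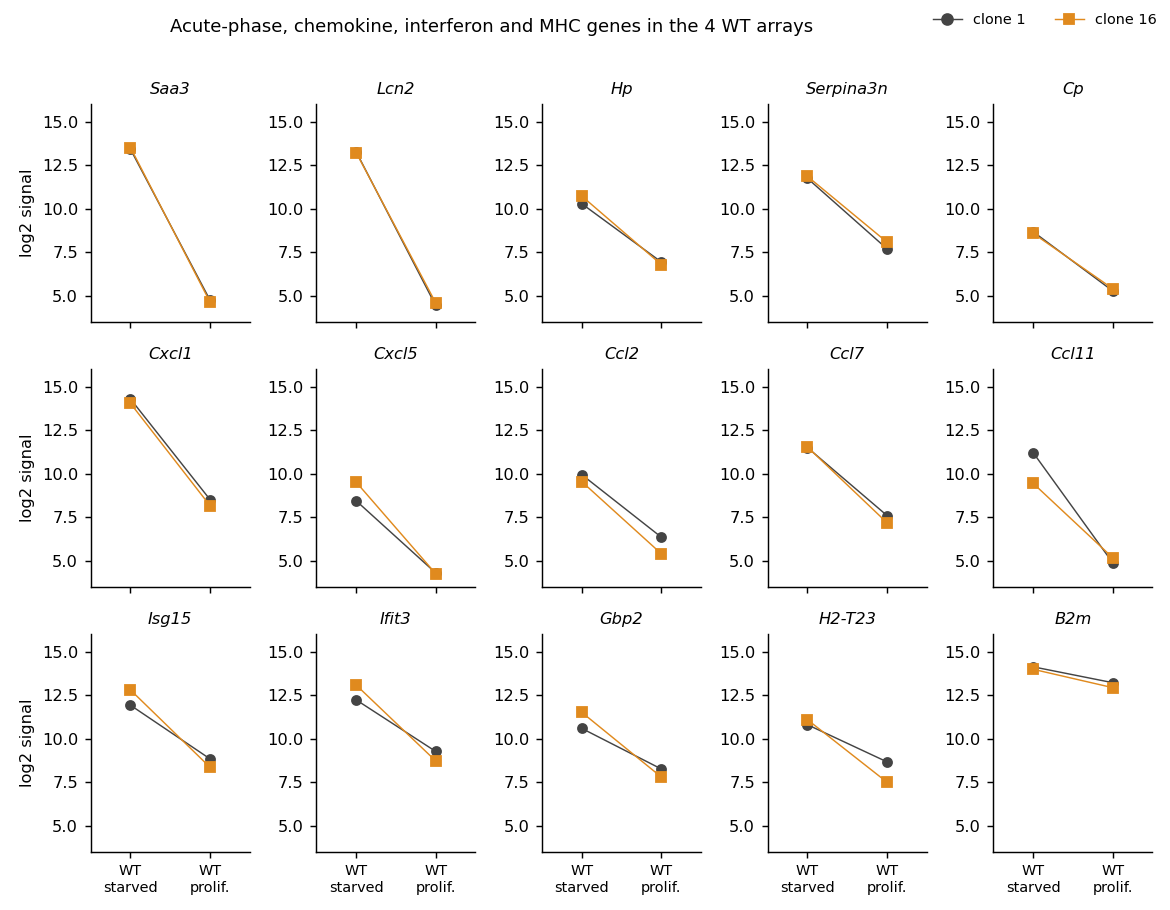
Log2 signal (y axis) on the 4 WT arrays for 15 genes, starved at left and proliferating at right of each panel, with clone 1 as circles and clone 16 as squares joined within a clone. Every line falls toward the proliferating array, most steeply for Saa3 and Lcn2, and B2m shows a high level on all 4 arrays.

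Interferon response genes often carry the interferon-stimulated response element (ISRE), searched as GAAANNGAA on both strands. It was found for 12 of 22 higher interferon-induced genes with a window (54.5%), against 8.35% of features with a window and 8.56% of all windows. This motif too was chosen after the values were seen. Irgm2 and Gbp3 are shown as 2 of the higher genes that hold it, with the element in capitals; it began 64 bases upstream of the start in Irgm2, and the Gbp3 stretch holds 2 overlapping matches on the opposite strand.
Irgm2 (chr11:58214867-58214966, plus strand): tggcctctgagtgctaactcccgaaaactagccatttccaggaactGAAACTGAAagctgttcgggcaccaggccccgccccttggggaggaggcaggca
Gbp3 (chr3:142559944-142560043, plus strand): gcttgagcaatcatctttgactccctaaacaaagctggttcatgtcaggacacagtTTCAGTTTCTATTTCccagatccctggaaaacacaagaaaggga

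Metalloproteinases and antioxidant genes were partly higher. Of 14 measured metalloproteinase and inhibitor genes 5 were higher and none was lower, with a median of 0.574. Mmp3, stromelysin 1, which cleaves many matrix proteins, had 11.59 and 12.04 on the starved arrays, against 6.29 and 5.68 on the proliferating arrays (difference 5.84 ± 0.25, SE, 57.2-fold higher, weakest probe 5.20, adjusted p = 0.000113). It stood apart from its list, where the other higher members, Mmp2, Mmp13, Adamts1 and Adamts5, had differences of 0.72 to 1.13. Of the 4 fits that left out 1 array, Adamts1 was called in none (adjusted p up to 0.229), Mmp2 in 1 (up to 0.2), and Mmp13 and Adamts5 in 2 (up to 0.114 and 0.156), and a second probe of Mmp13 gave 0.04. With the clone as a block 8 members were higher. Of 23 measured NRF2 targets and antioxidant genes 9 were higher and none lower, with a median of 0.501, and with the clone as a block 11 were higher and 1 lower. Gstm1, a glutathione transferase, had 9.52 and 9.22 on the starved arrays, against 7.23 and 6.90 on the proliferating arrays (difference 2.31 ± 0.19, SE, 4.95-fold higher, weakest probe 0.42, adjusted p = 0.000839). Hmox1, heme oxygenase 1, had 8.88 and 9.10 on the starved arrays, against 7.23 and 6.96 on the proliferating arrays (difference 1.90 ± 0.17, SE, 3.73-fold higher, adjusted p = 0.00109). Nqo1, the reductase most often used as an NRF2 target, had 6.32 and 6.60 on the starved arrays, against 6.41 and 6.17 on the proliferating arrays and was not called (difference 0.17 ± 0.18, SE, adjusted p = 0.535).

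Of 12 measured lipid carriers and lipases 5 were higher and 1 was lower, with a median of 0.441. Apod, apolipoprotein D, had 10.84 and 11.17 on the starved arrays, against 6.22 and 6.35 on the proliferating arrays (difference 4.72 ± 0.18, SE, 26.4-fold higher, adjusted p = 4.69e-05). Angptl4, an inhibitor of lipoprotein lipase, had 12.29 and 12.11 on the starved arrays, against 7.41 and 7.66 on the proliferating arrays (difference 4.67 ± 0.17, SE, 25.4-fold higher, adjusted p = 4.69e-05). Both moved by more than any member of the lipid synthesis lists. Fabp3, a fatty acid binding protein of muscle and heart, was the 1 lower member and fell by 2.39 (adjusted p = 0.0006).

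Genes of cell division were lower. The list of mitosis and G2/M had 22 of 25 measured members lower, none higher and a median of -1.33. Plk1, the kinase that drives entry into mitosis, had 6.87 and 6.64 on the starved arrays, against 8.36 and 8.76 on the proliferating arrays (difference -1.80 ± 0.19, SE, 3.49-fold lower, adjusted p = 0.0018). Kif23, a motor of the midbody, had 5.97 and 5.56 on the starved arrays, against 7.70 and 7.90 on the proliferating arrays (difference -2.04 ± 0.19, SE, 4.1-fold lower, adjusted p = 0.00118). Top2a, which untangles DNA before division, had 6.60 and 6.37 on the starved arrays, against 7.85 and 8.42 on the proliferating arrays (difference -1.65 ± 0.22, SE, 3.15-fold lower, adjusted p = 0.00397). Cdk1, the mitotic kinase, had 7.94 and 7.78 on the starved arrays, against 9.18 and 8.97 on the proliferating arrays (difference -1.21 ± 0.16, SE, 2.31-fold lower, adjusted p = 0.00409). Signals remained above background in starved cells for all 4. Birc5, survivin, fell by 1.92 (adjusted p = 0.000849), Prc1, which bundles microtubules of the spindle midzone, fell by 1.73 (adjusted p = 0.00151), and Aurka, a spindle pole kinase, fell by 1.62 (adjusted p = 0.0021). Cdc25b, Nusap1 and Spc25 were not called, although Cdc25b passed with the clone as a block (adjusted p = 0.043). A further 13 of the 44 list members, Ccna2 and Ccnb2 among them, were not above background on at least 2 arrays and have no value.

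The CHR element, through which the DREAM complex holds mitotic genes down in resting cells, was searched as TTTGAA. It was found for 15 of 17 lower mitotic genes with a window (88.2%), against 14% of features with a window and 17.9% of all windows. CCAAT boxes were found for 12 of the 17 (70.6%, against 43.6% and 37.4%). Prc1 and Kif2c are shown as 2 lower genes with 1 CHR match each, in capitals, 30 and 103 bases upstream of the start.
Prc1 (chr7:80294376-80294475, plus strand): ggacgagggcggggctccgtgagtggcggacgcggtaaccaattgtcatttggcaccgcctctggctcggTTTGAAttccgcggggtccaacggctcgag
Kif2c (chr4:117178823-117178922, minus strand): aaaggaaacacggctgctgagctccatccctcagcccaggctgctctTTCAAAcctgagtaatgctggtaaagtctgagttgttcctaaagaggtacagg

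Replication genes were lower by less than mitotic genes. Of 15 measured members of origin licensing and initiation 9 were lower and none was higher, with a median of -0.656. All 15 had a negative difference. Mcm3, a subunit of the replicative helicase, had 5.34 and 5.18 on the starved arrays, against 6.63 and 6.54 on the proliferating arrays (difference -1.33 ± 0.16, SE, 2.51-fold lower, adjusted p = 0.00246). Mcm5, of the same complex, had 7.58 and 7.48 on the starved arrays, against 8.77 and 8.84 on the proliferating arrays (difference -1.28 ± 0.15, SE, 2.42-fold lower, adjusted p = 0.00258). Mcm6 fell by 1.14 (weakest probe -0.47) and Mcm7 fell by 1.03, and Mcm4 was not called. At the replication fork 9 of 23 measured members were lower and none higher (median -0.494), and Nasp, a histone chaperone, fell by 1.28 (adjusted p = 0.00261). The lower genes Lig1, Rpa2, Chaf1a, Fen1 and Asf1b each lost their call in at least 1 fit that left out 1 array. Of 9 deoxynucleotide synthesis genes Tk1 and Tyms were lower, and for Tyms the call was lost without the array of starved clone 1 or starved clone 16 (adjusted p = 0.0526 and 0.0925). Tk1, thymidine kinase, had 7.12 and 6.76 on the starved arrays, against 8.44 and 8.60 on the proliferating arrays (difference -1.58 ± 0.18, SE, 2.99-fold lower, weakest probe -0.62, adjusted p = 0.00232). Rrm1 and Rrm2, the subunits of ribonucleotide reductase, were not called. Of 18 chromatin genes of dividing cells 9 were lower (median -0.681), and Ezh2, the H3K27 methyltransferase, fell by 1.33 (adjusted p = 0.00319).

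The E2F site, searched as TTTCCCGC and TTTGGCGC, was found for 5 of the 9 lower licensing genes (Mcm3, Mcm5, Mcm6, Mcm7 and Cdt1; 55.6%), against 3.21% of features with a window and 1.56% of all windows. For Cdt1 the call was lost without the array of starved clone 1, starved clone 16 or proliferating clone 1 (adjusted p = 0.208, 0.181 and 0.0643). Of 8 lower fork genes with a window none held it. Mcm5 and Mcm6 are shown because both encode helicase subunits that were lower, with the E2F site in capitals; it began 149 and 47 bases upstream of the start, on opposite strands.
Mcm5 (chr8:75109314-75109413, plus strand): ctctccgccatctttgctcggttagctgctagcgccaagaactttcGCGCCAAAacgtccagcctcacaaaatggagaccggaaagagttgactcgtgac
Mcm6 (chr1:128359706-128359805, minus strand): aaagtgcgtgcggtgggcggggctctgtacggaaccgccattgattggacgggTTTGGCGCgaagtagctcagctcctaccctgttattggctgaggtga

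Of 10 measured E2F and Rb family genes 1 was called, and 1 more, E2f2, was lower with the clone as a block (adjusted p = 0.047). Rb1, the retinoblastoma gene, had 7.80 and 7.67 on the starved arrays, against 6.48 and 6.67 on the proliferating arrays (difference 1.16 ± 0.16, SE, 2.23-fold higher, weakest probe 0.26, adjusted p = 0.00445). E2f1 had 9.29 and 9.15 on the starved arrays, against 8.96 and 8.77 on the proliferating arrays and E2f3 had 6.41 and 6.52 on the starved arrays, against 6.93 and 6.83 on the proliferating arrays, and neither was called (differences 0.36 ± 0.16 and -0.42 ± 0.15, SE, adjusted p = 0.167 and 0.102). Among 13 G1 cyclins, kinases and inhibitors 2 were higher and 1 lower. Cdkn2a, which encodes p16Ink4a and p19Arf, had 10.77 and 10.43 on the starved arrays, against 7.18 and 6.71 on the proliferating arrays (difference 3.65 ± 0.21, SE, 12.5-fold higher, weakest probe 2.67, adjusted p = 0.000289). The difference was the largest on the cell cycle lists and was of like size in both clones. Cdkn2b, its neighbour encoding p15Ink4b, was higher by 0.90 (adjusted p = 0.0177), but the call was lost without the array of starved clone 16 or proliferating clone 1 (adjusted p = 0.142 and 0.0833). Cdkn1a, p21, had 12.59 and 12.55 on the starved arrays, against 12.40 and 11.80 on the proliferating arrays and was not called (adjusted p = 0.17). Ccnd1, cyclin D1, had 12.54 and 12.61 on the starved arrays, against 12.44 and 12.17 on the proliferating arrays and was not called (adjusted p = 0.288). Of 14 p53 targets 7 were higher and 1 lower (median 0.641), with Mdm2, the ubiquitin ligase for p53, higher by 1.02 (adjusted p = 0.00611) and the death receptor Fas by 1.84 (adjusted p = 0.000839). Of the 4 fits that left out 1 array, Polk was called in none, Trp53inp1 and Phlda3 in 1, Ccng1 in 2 and Ei24 in 3. Another probe of Ccng1 gave -0.43. The lower member, Tnfrsf10b, was called in none of these fits and had 0.35 on another probe.

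Genes of the actin cytoskeleton formed another lower group, 16 of 21 measured with none higher and a median of -1.0. Tagln, transgelin, had 7.74 and 7.26 on the starved arrays, against 10.96 and 9.98 on the proliferating arrays (difference -2.98 ± 0.33, SE, 7.87-fold lower, adjusted p = 0.0021). Actg2, smooth muscle gamma actin, had 8.33 and 8.30 on the starved arrays, against 11.64 and 11.10 on the proliferating arrays (difference -3.05 ± 0.21, SE, 8.31-fold lower, adjusted p = 0.000566). Acta2, smooth muscle alpha actin and the usual marker of myofibroblasts, had 13.87 and 13.54 on the starved arrays, against 14.99 and 14.80 on the proliferating arrays (difference -1.19 ± 0.18, SE, 2.28-fold lower, adjusted p = 0.00608). Acta2 stayed bright in starved cells. On the proliferating arrays it was at the top of the quantile-normalized scale, so its difference may be understated. Contractile genes outside this list were among the most lowered of all. Acta1, skeletal alpha actin, had 5.09 and 5.26 on the starved arrays, against 9.98 and 8.49 on the proliferating arrays (difference -4.06 ± 0.43, SE, 16.7-fold lower, adjusted p = 0.00175). Mylk, myosin light chain kinase, fell by 2.68 (adjusted p = 0.000813), Myh10, nonmuscle myosin IIB, fell by 3.14 (adjusted p = 0.000128), and Des, desmin, fell by 2.45 (adjusted p = 0.00107). The 3 measured skeletal muscle markers, of 8, summed to a linear signal of 90.5 and 90.8 on the starved arrays, against 1260 and 541 on the proliferating arrays. Vim, Vcl, Zyx and Srf itself were not called. Ccn2, connective tissue growth factor, fell by 2.32 (adjusted p = 0.00206).

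The CArG box, which SRF binds, was found for 3 of 12 lower actin genes with a window (25%), against 1.66% of features with a window and 1.63% of all windows. Fhl2, a LIM domain protein gene that fell by 1.80, and Cnn2, calponin 2, which fell by 0.88, are shown with the box in capitals. For Cnn2 the call was lost without the array of starved clone 16 (adjusted p = 0.0947).
Fhl2 (chr1:43196803-43196902, minus strand): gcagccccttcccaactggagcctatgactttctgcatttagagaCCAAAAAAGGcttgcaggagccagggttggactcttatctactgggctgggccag
Cnn2 (chr10:79988499-79988598, plus strand): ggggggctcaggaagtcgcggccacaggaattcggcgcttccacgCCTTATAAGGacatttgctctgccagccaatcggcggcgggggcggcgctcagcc

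Matrix genes split. Of 42 measured collagens and other matrix genes 12 were higher and 7 lower, with a median of 0.17. Eln, elastin, had 6.44 and 6.52 on the starved arrays, against 10.04 and 10.76 on the proliferating arrays (difference -3.92 ± 0.25, SE, 15.1-fold lower, adjusted p = 0.000376). Col1a1, a chain of type I collagen, had 11.48 and 11.55 on the starved arrays, against 12.71 and 12.89 on the proliferating arrays (difference -1.29 ± 0.16, SE, 2.44-fold lower, adjusted p = 0.00276), while Col1a2, its partner chain, was not called (difference -0.21 ± 0.17, SE, adjusted p = 0.427). Tnc, tenascin C, fell by 1.85 (weakest probe -0.76, adjusted p = 0.0105), but the call was lost without the array of proliferating clone 1 or proliferating clone 16 (adjusted p = 0.0942 and 0.0506). On the higher side Dcn, the small proteoglycan decorin, had 13.56 and 13.25 on the starved arrays, against 10.35 and 10.89 on the proliferating arrays (difference 2.78 ± 0.22, SE, 6.87-fold higher, adjusted p = 0.000801). Dpt, dermatopontin, was higher by 3.63 (12.4-fold, adjusted p = 0.000732), Lum, lumican, by 2.07 (4.19-fold, adjusted p = 0.0155) and Fbln1, fibulin 1, by 2.00 (4-fold, weakest probe 1.39, adjusted p = 0.00708). Bgn and Ogn, other small proteoglycans, were not called. Col3a1 was higher by 1.46 on its brightest probe and had -0.87 on its other probe, so its direction is uncertain. The PDGF receptors went in opposite directions, Pdgfra higher by 1.83 (adjusted p = 0.0139) while Pdgfrb fell by 0.75 (adjusted p = 0.0496), although the call was lost without the array of starved clone 1, starved clone 16 or proliferating clone 16 (adjusted p = 0.229, 0.126 and 0.104).

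RNAs of lipid synthesis enzymes were lower along most of the pathway. Of 18 measured cholesterol genes 14 were lower and none was higher, with a median of -1.13. Cyp51, lanosterol demethylase, had 7.97 and 7.55 on the starved arrays, against 9.80 and 9.77 on the proliferating arrays (difference -2.02 ± 0.19, SE, 4.05-fold lower, adjusted p = 0.00109). Fdps, farnesyl diphosphate synthase, had 10.66 and 10.11 on the starved arrays, against 12.13 and 12.14 on the proliferating arrays (difference -1.75 ± 0.21, SE, 3.37-fold lower, adjusted p = 0.00261). Lss, lanosterol synthase, had 7.01 and 6.66 on the starved arrays, against 8.51 and 8.94 on the proliferating arrays (difference -1.89 ± 0.21, SE, 3.71-fold lower, adjusted p = 0.00212). The early enzyme Hmgcs1, HMG-CoA synthase, fell by 0.91 (adjusted p = 0.016), but the call was lost without the array of starved clone 16 or proliferating clone 16 (adjusted p = 0.114 and 0.051). Stard4, a sterol carrier, fell by 1.46 (adjusted p = 0.0071). The regulator Srebf2, SREBP2, fell by 0.95 (adjusted p = 0.01), but the call was lost without the array of starved clone 16 (adjusted p = 0.0947). Of 12 fatty acid genes 9 were lower and none higher (median -0.821). Several of these calls were weak. Of the 4 fits that left out 1 array, Acaca, Elovl5, Fads1 and Fads2 were called in 1, Scd1 in 2 and Elovl6 in 3. Acly passed narrowly (adjusted p = 0.0495). Scd2, a stearoyl-CoA desaturase, had 7.12 and 7.10 on the starved arrays, against 8.43 and 9.08 on the proliferating arrays (difference -1.64 ± 0.23, SE, 3.12-fold lower, adjusted p = 0.00447). Acsl3, an acyl-CoA synthetase, fell by 1.33 (adjusted p = 0.00794). Srebf1, Sc5d and Dhcr7 were not called, although Dhcr7 passed with the clone as a block (adjusted p = 0.0354).

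The sterol regulatory element (SRE), searched as TCACNCCAC, was found for 1 of 11 lower cholesterol genes with a window (9.09%, against 1.41% of features and 1.24% of all windows) and for none of 6 lower fatty acid genes. All 11 cholesterol windows held CCAAT (43.6% of features and 37.4% of windows did). The 1 match was in Hmgcs1 and is in capitals.
Hmgcs1 (chr13:119690168-119690267, plus strand): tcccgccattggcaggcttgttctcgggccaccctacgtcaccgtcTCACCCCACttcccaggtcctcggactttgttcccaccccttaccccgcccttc

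Of 23 measured ATF4 targets and amino acid genes 14 were lower and 1 was higher, with a median of -0.777. Psat1, of serine synthesis, had 8.87 and 9.12 on the starved arrays, against 10.50 and 10.88 on the proliferating arrays (difference -1.69 ± 0.19, SE, 3.23-fold lower, adjusted p = 0.00222). Trib3, a pseudokinase induced by ATF4, had 4.70 and 4.87 on the starved arrays, against 7.20 and 6.98 on the proliferating arrays (difference -2.30 ± 0.17, SE, 4.94-fold lower, adjusted p = 0.0006). Slc7a5, a leucine transporter, had 9.21 and 9.46 on the starved arrays, against 10.99 and 11.34 on the proliferating arrays (difference -1.83 ± 0.19, SE, 3.55-fold lower, adjusted p = 0.00156). Phgdh, the first enzyme of serine synthesis, fell by 1.16 (adjusted p = 0.00567) and Chac1, which degrades glutathione, fell by 1.56 (adjusted p = 0.00345). Atf4 itself fell by 0.71 (adjusted p = 0.0278), but the call was lost without the array of starved clone 1, starved clone 16 or proliferating clone 16 (adjusted p = 0.137, 0.177 and 0.059). Cebpb, also an acute-phase regulator, was the 1 higher member, by 1.05 (adjusted p = 0.00494). Of 12 lower genes with a window none held the C/EBP-ATF response element, searched as TGATGNAAT (0.657% of features did).

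**Figure D4:**
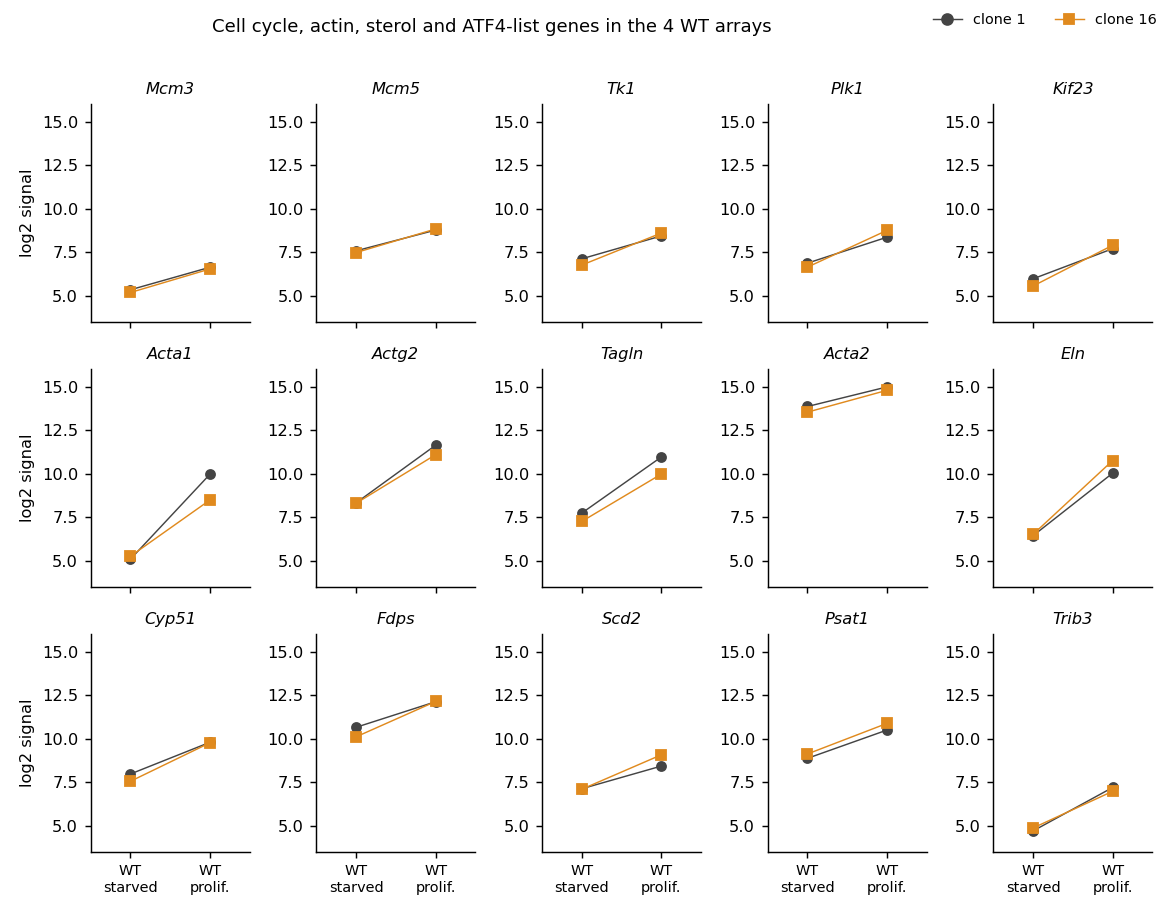
Log2 signal (y axis) on the 4 WT arrays for 15 genes of replication, mitosis, actin, matrix, lipid and amino acid lists, starved at left and proliferating at right of each panel, with clone 1 as circles and clone 16 as squares. Every line rises toward the proliferating array, most steeply for Acta1 and Eln.

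Of 53 cytosolic ribosomal protein genes 1 was higher and 3 were lower (median -0.0818), and of 67 oxidative phosphorylation genes none was higher and 3 were lower (median -0.0584), below the background in both directions. Of 23 Myc and ribosome biogenesis genes 4 were lower (median -0.263). Myc, above background only on the 2 proliferating arrays, had 4.54 and 4.39 on the starved arrays, against 5.74 and 4.81 on the proliferating arrays and was not called (adjusted p = 0.098, or 0.0139 with the clone as a block). Of 25 measured Hox genes none was called, and with the clone as a block Hoxd4 was higher and Hoxa2 and Hoxd12 were lower (adjusted p = 0.0342, 0.0399 and 0.0191). Of 41 lysosome and autophagy genes 5 were higher and 1 lower (median 0.0622), or 5 and 2 with the clone as a block. The higher share was near the background of 9.89%. Glb1 and Tpp1 kept their call in no fit that left out 1 array, and Man2b1 lost it in some. The CLEAR element, searched as TCACGTG, was found for 10 of 34 with a window (29.4%, against 7.22% of features). Of these Glb1 and Lgmn were called. Of 20 immediate early genes, the first to respond when serum is added, 2 were higher and 2 lower (median -0.0697). These shares, 10% each way, were close to the background of 9.89% higher and 9.74% lower. The lower ones were Klf2 and Ccn2 (differences -1.50 and -2.32), and the higher ones were Klf4 (1.15) and Ier3. The calls of Klf2 and Klf4 did not hold in every fit that left out 1 array. Their differences there were -1.88 to -1.14 for Klf2 and 0.825 to 1.47 for Klf4. Ier3, an early survival gene, was higher by 1.51 (adjusted p = 0.0169). Its call was lost without the array of starved clone 16 (adjusted p = 0.0507). With the clone as a block 3 were higher and 5 lower. MAPK feedback genes and growth factor targets were lower for 4 of 12, and Etv4, an ETS factor, fell by 1.39 (adjusted p = 0.00447). The other lower members, Hbegf, Epha2 and Plaur, were each called in 2 of the 4 fits that left out 1 array. Among the feedback genes Dusp4, Dusp6 and Spry4 were not called. Spred1 was higher by 0.77 (adjusted p = 0.0282) but was called in 1 of those 4 fits. Of 18 growth arrest-specific and quiescence genes 6 were higher and 4 lower (median 0.0369). Among them Pdgfra kept its call in each fit that left out 1 array. Gas6, Cavin2, Ndn, Ccng2, Pdgfrb, Prrx1, Klf9 and Dab2 each lost it in at least 1 such fit. Pmp22 passed narrowly (adjusted p = 0.0492) and had -0.31 on another probe. Of 15 FOXO targets 3 were higher, with Pdk4, which restrains pyruvate oxidation, higher by 1.32 (adjusted p = 0.00672). In the IGF system Igfbp3, the main IGF carrier of serum, was higher by 1.55 (adjusted p = 0.00957), and Igf1r and Igf2r were lower but were called in 1 and none of the 4 fits that left out 1 array (adjusted p up to 0.125 and 0.225). With the clone as a block 2 members were higher and 3 lower.

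The WT response was also set against that of E2F3 L430Q MEFs which asks whether it depended on the genotype. With all 8 arrays normalized together, the difference between the genotypes' responses was tested for 10214 features and 0 (0%) were called by limma. An unadjusted p under 0.05 was reached by 158, fewer than chance alone would give at that threshold. The gap between the clones' differences had an SD of 0.692 across features in E2F3 L430Q, against 0.44 in WT. With 2 clones each and that spread, 0 calls cannot show that the responses were alike. The mean responses correlated at r = 0.837 across features. The 2 WT clones had median interferon differences of 1.81 and 2.34, against 0.168 in E2F3 L430Q clone 2 and 2.49 in clone 4. For the NF-kB list the medians were 1.28 and 1.35 in the WT clones, against -0.346 in E2F3 L430Q clone 2 and 1.28 in clone 4. The 2 WT clones thus lay close to E2F3 L430Q clone 4, and clone 2 stood apart. Lcn2 had 4.45 and 4.62 on the WT proliferating arrays, against 14.3 on that of E2F3 L430Q clone 2 and 4.32 on that of clone 4, on the scale of all 8 arrays. Cxcl1 had 8.63 and 8.28 on the WT proliferating arrays, against 14.12 on that of E2F3 L430Q clone 2 and 9.78 on that of clone 4. Leaving out the proliferating array of clone 2 left 0 features called, and leaving out that of clone 4, with clone 2 as the only proliferating E2F3 L430Q array, left 156. Cholesterol genes did not share that gap, with medians of -0.853 and -1.49 in the WT clones, against -0.853 and -1.70 in E2F3 L430Q clones 2 and 4. Mitotic genes had medians of -1.19 and -1.56 in the WT clones, against -0.571 and -1.53 in the E2F3 L430Q clones.

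**Figure D5:**
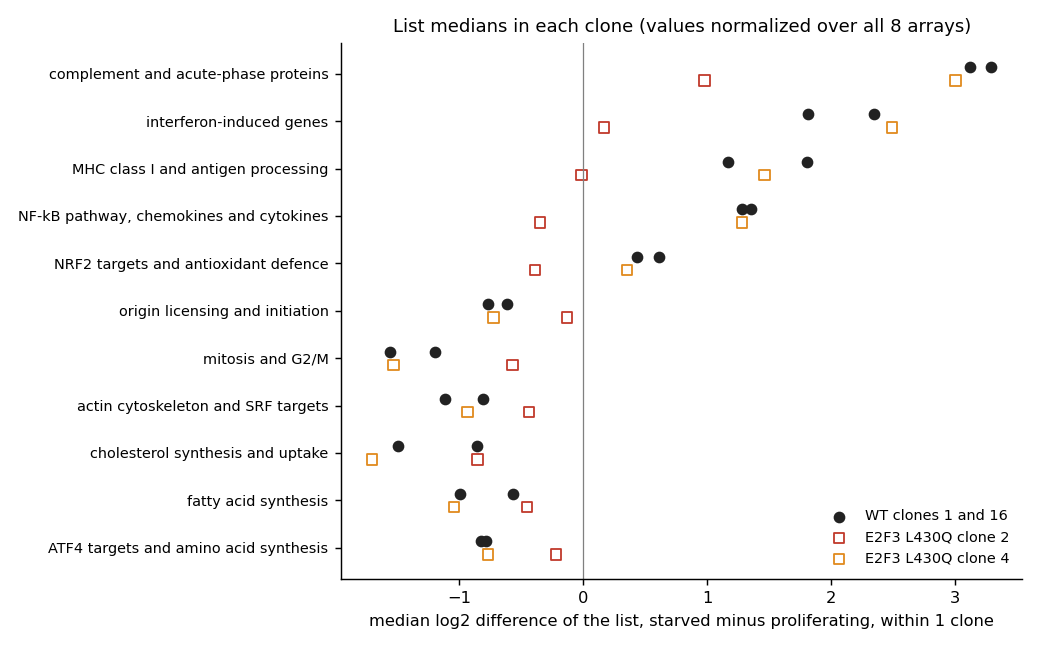
Median log2 difference, starved minus proliferating, of 11 gene lists (rows) within each clone, with WT clones as filled circles and E2F3 L430Q clones as open squares, from values normalized over all 8 arrays. The WT clones and E2F3 L430Q clone 4 lie on the same side of 0 in every list, and clone 2 lies to the left of both WT clones in the upper 5 lists.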

How the data were processed

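Total RNA of 8 MEF cultures, 2 per genotype and condition, was labelled as biotin cRNA and hybridised to Illumina mouse bead arrays, which the authors read with GenomeStudio. The deposited probe intensity values were neither background-subtracted nor normalized, and each had a deposited detection p-value against negative control beads. The authors' processed intensity values, used as an alternative only, were linear and of shared quantiles (array medians 8.4 to 8.5, lowest -14.4); how they were background-subtracted was not given in the sources used here.

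The 4 WT arrays were background-corrected and quantile-normalized with neqc (offset 16, limma 3.58.1, R 4.3.3), and log2 signals were fitted with lmFit and eBayes (2 residual degrees of freedom, prior 4.91) with Benjamini-Hochberg adjustment over 9500 features. Probes were kept when detected at p under 0.05 on at least 2 arrays, and the brightest probe stood for a gene. Of 25697 probes, 23978 had 1 gene symbol in the platform annotation, 0 several and 1719 none, and the symbols of 23962 probes were found in RefSeq. Where a gene had several passing probes (2272 genes), 740 had probes of opposite sign, 48 of the 441 called ones among them. "At least" folds set the mean signal of the group above background against the higher of the lowest detected signal and the gene's own signal on the other arrays. For a called gene above background on 1 array of a group the difference is not a bound. The number of arrays limits the precision, and an exact permutation test of 2 against 2 arrays cannot go below p = 0.333. The fit was tested on simulated data.

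The clone numbers of the labels pair the arrays, since the same clone was grown in both conditions. Eif2s3y, a Y-linked gene, had 7.60 in starved clone 1 and 4.25 in starved clone 16, against 7.10 and 4.24 in the same proliferating clones. Xist, an RNA of female cells, had 4.40 in starved clone 1 and 6.43 in starved clone 16. It had 4.45 and 6.50 in the same proliferating clones. The clones thus differed in embryo sex, and clone and sex cannot be told apart. Deviations from the group means correlated at r = 0.0984. The methods name an unpaired test, so the clone was a block only in an alternative.

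The members and the gene lists were chosen with earlier results of these data known, and no list was tested. Named genes were the 15 largest called differences each way among genes detected on all 4 arrays, up to 8 each way that were above background in 1 condition only, up to 8 of each list by p, 6 with the largest gap between clones, 6 with the smallest p of the genotype difference, and genes named for their role. The alternatives changed the background correction, normalization, source of values, filter, probe rule, variance model, arrays, pairing, test and threshold.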

Additional observations from a re-analysis of the deposited data

Results flagged for a closer look

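Glrx3, a monothiol glutaredoxin that takes part in iron handling, had positive differences, starved minus proliferating, in both WT clones and negative ones in both E2F3 L430Q clones. Within clones the differences were 0.61 and 0.89 in the WT clones, against -0.61 in E2F3 L430Q clone 2 and -0.29 in clone 4. The response of WT minus that of E2F3 L430Q MEFs was 1.2 ± 0.24 on the log2 scale (SE, 2 clones each). The difference itself was tested with limma over 10214 features and gave an adjusted p of 1.0, so it did not pass (limma, unadjusted p of 0.00145). Glrx3 had 2 probes, and the WT difference was 0.75 on the brighter one and -0.03 on the other.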

How the results depend on the processing

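The counts of 940 higher and 925 lower features came from 4 arrays and were sensitive to losing 1 of them. Leaving out 1 array gave 453 to 851 higher and 333 to 867 lower: 453 and 333 without the starved array of clone 16, 477 and 383 without that of clone 1, 551 and 534 without the proliferating array of clone 1, and 851 and 867 without that of clone 16. The clone as a replicate block gave 1151 higher and 1165 lower and shared 1860 of the 1865 calls. In a fit of all 8 arrays 396 were higher and 435 lower, and with the block of clones in that fit 405 and 395. With no detection filter 647 were higher and 576 lower. At an adjusted p under 0.01 there were 404 and 296, and with a difference of at least 1 there were 448 and 347. The methods' t-test called 1106 higher and 1087 lower before adjustment and 0 and 1 after Benjamini-Hochberg, sharing 0 with the calls of limma. Median scaling moved the split to 684 higher and 1267 lower (35.1% higher, against 50.4%). The cause of these shifts was not tested.

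Of the 247 named genes that were called none changed direction under any alternative, and 147 kept their call without any 1 array. The replicate block kept all 247, median scaling 232 and the fit of all 8 arrays 126. Of the genes not called, Fam114a1 (0.37) and Slc15a3 (0.35) ranged over -0.24 to 0.98 and -0.24 to 0.94 when 1 array was left out. The list medians that changed sign were FOXO targets, -0.0082 with median scaling, and glycolysis, -0.00264 with median scaling, and, with 1 array left out, glycolysis -0.0493 to 0.197, IGF system -0.401 to 0.0309, fibroblast markers -0.185 to 0.0284, endothelium -0.0542 to 0.35 and epithelium -0.0068 to 0.455. The difference between genotypes had 0 calls in each alternative but 1, the one without the proliferating array of E2F3 L430Q clone 4, which had 156; leaving out 1 array therefore gave 0 to 156. Genes close to background have compressed differences on this scale.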

Other observations

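Histone gene families did not move together in starved WT MEFs. These families were picked by symbol after the values were seen, and their members are near-identical, so single genes are uncertain. Of 12 measured H2A genes of the histone clusters 9 were lower and 1 was higher (median -1.65), and H2ac12 had 7.88 and 8.11 on the starved arrays, against 10.04 and 10.08 on the proliferating arrays (difference -2.06 ± 0.16, SE, adjusted p = 0.000728). Of 7 H4 genes 6 were higher and none was lower (median 1.23), and H4c8 had 10.2 and 9.59 on the starved arrays, against 8.19 and 7.70 on the proliferating arrays (difference 1.95 ± 0.26, SE, adjusted p = 0.00362). H2B genes were higher for 4 of 9 (median 0.751).

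Other families seen in the same way were those of adhesion and detoxification. Of 11 measured integrins, the matrix receptors of the cell surface, 6 were lower and none was higher (median -0.894). Itga11, a collagen receptor subunit, had 10.92 and 10.92 on the starved arrays, against 12.61 and 12.33 on the proliferating arrays (difference -1.55 ± 0.17, SE, adjusted p = 0.00189). Of 19 glutathione S-transferases 9 were higher and 1 lower (median 0.595), with Mgst1 at 11.41 and 11.24 on the starved arrays, against 9.0 and 8.77 on the proliferating arrays (difference 2.43 ± 0.17, SE, adjusted p = 0.000566). Both measured proliferins, Prl2c3 and Prl2c4, placental hormone relatives named for their expression in growing cells, were higher in starved cells. Prl2c4 was above background on neither proliferating array and was at least 8.07-fold higher, and Prl2c3, above background on 1 of the 2 proliferating arrays, had 8.75 and 7.86 on the starved arrays, against 5.15 and 4.31 on the proliferating arrays. Of 15 measured aldehyde dehydrogenases 6 were higher and 3 lower (median 0.396). Aldh1l2, a mitochondrial folate enzyme, was at 7.30 and 7.57 on the starved arrays, against 9.41 and 9.89 on the proliferating arrays. Aldh1a7 and Aldh3a1 were higher, and Aldh3a1 was above background on neither proliferating array.

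The gene with the smallest p for a difference between the genotypes' responses was Fcrls, a microglia and macrophage marker, with within-clone differences of -1.61 and -1.36 in the WT clones, against 0.04 in E2F3 L430Q clone 2 and -0.06 in clone 4 (limma, unadjusted p of 0.000399, adjusted p = 1.0). On the scale of all 8 arrays Fcrls was at 5.05 and 4.93 on the WT starved arrays and 6.72 and 6.33 on the WT proliferating arrays. It was at 4.61 and 4.64 on the E2F3 L430Q starved arrays and 4.57 and 4.71 on the E2F3 L430Q proliferating arrays. The E2F3 L430Q level was thus already below that of starved WT cells in proliferating cells. A fall like that of WT could not have been seen there. Mrc1, another macrophage marker, had -2.92 and -2.54 in the WT clones, against -1.12 and -0.57 in the E2F3 L430Q clones, where its proliferating arrays were at 5.46 and 5.72, below the 8.16 and 7.72 of the WT proliferating arrays. Apoe had 0.39 and 0.43 in the WT clones, against 2.38 and 2.00 in the E2F3 L430Q clones.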
